A study of Mus musculus with 10 samples.

Results

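The histone genes of regulatory T (Treg) cells were measured as 82 of the 41345 probe sets of a one-colour Affymetrix array. They were chosen by symbol, from the platform annotation, as linker (H1) and core (H2A, H2B, H3 and H4) histones, without use of any measured value. Of the 82 probe sets, 37 list 1 gene symbol and 45 list several, many histone genes being nearly identical in coding sequence. Together they name 75 histone symbols. By class, 63 probe sets belong to replication-dependent genes, 18 to variants, among them 6 of germ-cell genes, and 1 to a pseudogene. Fntb KO Treg cells came from chimeras labelled Foxp3CreFntbfl/fl, in which Cre from Foxp3 removes Fntb, the beta subunit of protein farnesyltransferase. WT Treg cells came from WT chimeras. Both were sorted as CD4+ YFP+ cells of spleen and pLN, and each group has 5 arrays. The labels give no age, host or donor strain, do not say which host cells remain in the chimeras or whether animals were pooled, and do not state whether WT cells carry the Foxp3 Cre.

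Histones package DNA: core histones form the nucleosome, and linker histone H1 binds where DNA enters and leaves it. Replication-dependent histone genes lie in clusters, are transcribed mainly in S phase, and give mRNAs that end in a stem loop rather than a poly(A) tail. Variant genes such as H2az1, H2ax, H3f3a and H3f3b are expressed outside S phase as well, mostly as polyadenylated mRNA. A T cell population that holds more dividing cells therefore holds more of the first kind of mRNA.

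Pairs of arrays within a group correlated at 0.964 to 0.990 over all probe sets. The array median was 4.09 to 4.12 (log2 level) in Fntb KO 1, Fntb KO 2 and WT 2, which are called low-median arrays here, and 4.19 to 4.25 in the other 7. Fntb itself had a level of 5.47 ± 0.12 in Fntb KO and 6.12 ± 0.16 in WT (n = 5 each, SD), a log2 difference of -0.65 with an adjusted p of 0.0175 in limma. The call was lost in a fit without these 3 arrays (adjusted p 0.134) and in those that left out Fntb KO 3, WT 4 or WT 5 (adjusted p 0.0531, 0.0576 and 0.0613), at differences of -0.66 to -0.63. The probe set's position against the deleted exons was not examined. The T cell markers measured had array medians of 10.51 to 10.84 in Fntb KO and 10.74 to 10.95 in WT, and Foxp3 averaged 10.53 in Fntb KO and 10.67 in WT, so the defining markers of the labelled cell type were present. Olfactory receptor genes, taken as silent in T cells, served to place the dim end of the scale: their 1091 probe sets had a median of 2.51, and 95% of them lay at or below 4.19. By their mean over all arrays, 41 of the 82 histone probe sets lay above 4.19, 30 of the replication-dependent and 11 of the variant ones.

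The promoters of the 5 replication-dependent linker histone genes are shown first, because 1 of these genes carried the largest histone change while the others did not pass the test. All 5 lie in the histone cluster of chromosome 13. Each line gives the 250 bases before the annotated start on the gene's strand, from RefSeq (GRCm38.p6), and the capitals mark the CCAAT box (letters CCAAT), the TATA box (letters TATAAA) and the H1 box (letters AAACACA) on either strand. The stretches are chr13:21780626-21780875 on the minus strand for H1f5, chr13:23763418-23763667 on the plus strand for H1f1, chr13:23738557-23738806 on the plus strand for H1f2, chr13:23554782-23555031 on the plus strand for H1f3 and chr13:23622559-23622808 on the minus strand for H1f4.
H1f5: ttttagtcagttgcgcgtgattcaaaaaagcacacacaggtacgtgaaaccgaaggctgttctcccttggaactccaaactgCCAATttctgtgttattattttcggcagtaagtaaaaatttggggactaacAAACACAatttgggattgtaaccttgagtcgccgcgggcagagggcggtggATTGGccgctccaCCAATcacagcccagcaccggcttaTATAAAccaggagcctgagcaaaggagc
H1f1: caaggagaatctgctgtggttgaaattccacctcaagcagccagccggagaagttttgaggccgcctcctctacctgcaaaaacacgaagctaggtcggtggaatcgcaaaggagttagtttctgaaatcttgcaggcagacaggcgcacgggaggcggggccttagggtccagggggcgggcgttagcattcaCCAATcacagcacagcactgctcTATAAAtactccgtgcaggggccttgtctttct
H1f2: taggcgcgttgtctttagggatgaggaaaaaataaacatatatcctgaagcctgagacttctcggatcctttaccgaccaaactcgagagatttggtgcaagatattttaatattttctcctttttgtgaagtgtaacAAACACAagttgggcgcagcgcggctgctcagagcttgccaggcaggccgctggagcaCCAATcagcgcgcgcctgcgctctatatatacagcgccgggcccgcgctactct
H1f3: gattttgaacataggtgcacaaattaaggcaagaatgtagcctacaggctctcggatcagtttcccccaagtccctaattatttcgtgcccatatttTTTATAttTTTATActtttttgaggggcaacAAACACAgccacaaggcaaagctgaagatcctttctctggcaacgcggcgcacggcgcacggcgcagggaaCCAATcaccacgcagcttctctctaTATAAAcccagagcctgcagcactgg
H1f4: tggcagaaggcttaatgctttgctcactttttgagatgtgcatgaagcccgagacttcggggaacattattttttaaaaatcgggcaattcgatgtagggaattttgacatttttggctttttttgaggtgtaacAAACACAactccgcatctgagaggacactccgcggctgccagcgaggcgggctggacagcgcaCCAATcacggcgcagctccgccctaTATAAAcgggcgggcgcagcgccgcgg

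AAACACA is the core of the H1 box, an element described in linker histone promoters, and it stood 117 bases before the start in H1f5, and 112, 122 and 115 bases before it in H1f2, H1f3 and H1f4. These letters were not found in the H1f1 window. A CCAAT lay 53 bases before the start in H1f5 and 51 to 56 bases before it in the other 4 genes. H1f5 held 3 matches to CCAAT, the others 1 each. TATAAA stood 28 bases before the start in H1f5 and 33, 26 and 27 bases before it in H1f1, H1f3 and H1f4, and was not found in H1f2. H1f3 held 3 matches to TATAAA, those at 153 and 145 bases on the opposite strand. Of all 32851 RefSeq promoters, 6.25% held AAACACA, 33.8% held CCAAT and 12.4% held TATAAA in the same window. Of the 57 promoters of replication-dependent histone genes in the table, 6 held AAACACA, 46 CCAAT and 26 TATAAA. The octamer ATTTGCAT, an element of H2B promoters, was in 6 of 14 H2B, 5 of 16 H2A and 3 of 12 variant histone promoters, and in 0 of the H1, H3 and H4 promoters of replication-dependent genes, against 1.60% of all promoters. All motifs were searched on both strands, with no mismatch allowed, and they describe the sequence only.

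H1f5 fell in Fntb KO Treg cells and was the only histone probe set to pass the test over all 41345 probe sets. H1f5 encodes linker histone H1.5, which compacts chromatin. Its levels were 3.76, 2.89, 3.47, 2.85 and 3.52 in Fntb KO, against 5.41, 6.08, 4.70, 5.10 and 5.63 in WT (log2). Every Fntb KO array lay below every WT array, with a gap between the groups. The log2 difference was -2.09 (SE 0.261, 95% interval -2.66 to -1.51), 4.25-fold lower, with an adjusted p of 0.00699 in limma, where the threshold was 0.05. In Fntb KO all 5 values were below the olfactory receptor guide of 4.19, so the fold can understate the change. In samples of many cells, fewer cells that express a gene and less RNA per cell cannot be told apart. Of all probe sets 0.283% were called lower, and H1f5 had rank 21 by size of fall among these 117. Without the 3 low-median arrays the difference was -1.93 and the adjusted p 0.0532, so the call was lost.

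The other replication-dependent linker histones did not pass. H1f2, the linker histone H1.2, had levels of 7.13, 8.20, 7.80, 7.88 and 7.99 in Fntb KO, against 7.71, 7.78, 7.21, 7.65 and 7.54 in WT. The groups overlapped, and the difference was 0.22 (95% interval -0.19 to 0.64, adjusted p 0.872). H1f3, linker histone H1.3, had levels of 2.99, 3.02, 3.24, 3.21 and 3.12 in Fntb KO, against 2.71, 3.14, 2.85, 3.13 and 3.17 in WT. H1f1, linker histone H1.1, had levels of 2.24, 2.69, 2.28, 2.48 and 2.88 in Fntb KO, against 2.80, 2.90, 2.85, 2.85 and 2.89 in WT. Both lay below 4.19 in every array with overlapping groups, at differences of 0.11 and -0.35 (adjusted p 0.898 and 0.426). H1f4, linker histone H1.4, has no probe set of its own here. A probe set that lists H1f4 with 3 H2B genes had levels of 5.10, 5.63, 5.59, 5.23 and 6.05 in Fntb KO, against 5.03, 5.12, 4.96, 5.14 and 5.45 in WT, a difference of 0.38 (SE 0.172, adjusted p 0.620) that was 0.25 without Fntb KO 5. Its groups overlapped, and its values cannot be assigned to the linker gene.

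**Figure D1:**
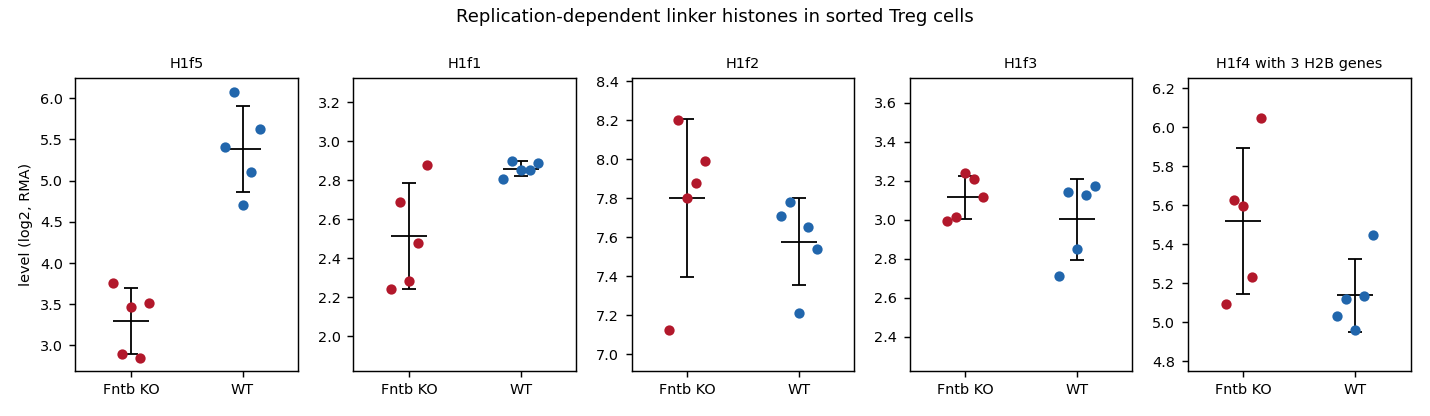
Levels of the replication-dependent linker histones (log2, RMA) in the Fntb KO and WT arrays, 1 point per array, with the mean and SD (n = 5 each) as line and bars. Each panel has its own scale. H1f5 is the panel whose groups do not overlap: 2.85 to 3.76 in Fntb KO and 4.70 to 6.08 in WT.

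Among H2A probe sets, none of the 17 passed. The probe set with the largest difference was that of H2ac15, a replication-dependent H2A gene. Its levels were 6.56, 7.11, 6.08, 6.82 and 7.18 in Fntb KO, against 7.81, 7.78, 7.52, 7.66 and 7.57 in WT. Every Fntb KO array lay below every WT array, and the Fntb KO arrays spread more widely (SD 0.45 against 0.13 in WT). The difference was -0.92 (SE 0.189), 1.90-fold lower, with an adjusted p of 0.0848 in limma. In limma the adjusted p was 0.0244 over the 25341 annotated probe sets, 0.0215 with 1 probe set per gene and 0.0280 after another quantile normalization of the annotated ones. H2ac15 passed in these fits, each of which left out the unannotated probe sets. The adjusted p was 0.0630 over the 20673 probe sets at or above the median level, and H2ac15 did not pass there.

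The H2A genes of the chromosome 13 cluster share most of their coding sequence, and 7 probe sets list the same 10 H2A symbols. Their differences ran from -0.47 to 0.27, and 4 of the 7 were below 0. Most of the 7 had means below 4.19, among them the one at 0.27 (mean 2.12). Those above 4.19 had means of 6.90 and 5.89 and differed by -0.47 and 0.10, so the list of symbols does not fix the level. The lowest difference was in the probe set whose first symbol is H2ac22. Its levels were 6.74, 6.84, 6.76, 6.21 and 6.81 in Fntb KO, against 7.17, 7.30, 7.18, 6.76 and 7.28 in WT. The groups overlapped only through WT 4 (difference -0.47, SE 0.144, adjusted p 0.322). H2ac10, measured alone, averaged 5.96 ± 0.25 in Fntb KO and 6.27 ± 0.20 in WT (n = 5 each, SD), a difference of -0.32 (adjusted p 0.602). The H2A genes of the chromosome 3 cluster gave differences close to 0, some with wide intervals. The probe set of H2ac18, H2ac19 and H2ac20 had levels of 9.01, 9.46, 8.82, 9.08 and 9.08 in Fntb KO, against 9.19, 9.09, 8.74, 8.97 and 9.09 in WT (difference 0.08, 95% interval -0.20 to 0.36). The groups overlapped throughout. H2ac20 alone differed by -0.01 (95% interval -0.65 to 0.63). The 2 probe sets of H2ac21 differed by -0.03 (-0.77 to 0.70) and 0.01 (-0.27 to 0.30). The intervals of H2ac20 and of the first H2ac21 probe set do not exclude larger differences. The second H2ac21 probe set had a mean of 3.32, below 4.19.

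None of the 15 H2B probe sets passed. The largest difference was in a probe set that lists 12 symbols, first H2bc6. Its levels were 8.50, 9.05, 9.19, 8.78 and 9.07 in Fntb KO, against 9.25, 9.46, 9.54, 9.69 and 9.58 in WT, with no overlap. The difference was -0.59 (SE 0.138, 95% interval -0.89 to -0.28, adjusted p 0.146). A probe set of H2bc13, H2bc15, H2bc11 and H2bc7 had levels of 8.60, 8.71, 8.97, 9.11 and 9.01 in Fntb KO, against 9.31, 9.23, 9.39, 9.65 and 9.42 in WT. Its groups did not overlap either (difference -0.52, SE 0.119, adjusted p 0.128). Another probe set of the same 4 genes, first H2bc15, had the highest difference of the type, 0.52 (SE 0.237, adjusted p 0.626), with levels of 3.58, 3.37, 3.59, 4.68 and 4.38 in Fntb KO, against 3.28, 3.39, 3.41, 3.66 and 3.25 in WT. Its high values came from Fntb KO 4 and Fntb KO 5, and the difference was 0.33 without the first of these. Probe sets of the same 4 genes thus differed in sign, and neither passed. The one at 0.52 had a mean of 3.66, below 4.19. A further probe set of these genes differed by 0.09, at a mean of 4.14, also below 4.19. All 3 probe sets with the same 12 symbols as that of H2bc6 were below 0, at -0.59 to -0.35, and those at -0.35 had identical values. H2bc3 measured alone was at 5.93 ± 0.65 in Fntb KO and 6.38 ± 0.26 in WT, and H2bc18 at 6.42 ± 0.53 in Fntb KO and 6.25 ± 0.19 in WT (n = 5 each, SD, adjusted p 0.772 and 0.935).

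H3 and H4 gave no call among 12 and 14 probe sets. Of the H3 probe sets, 1 that lists 8 genes, first H3c15, had levels of 6.48, 6.49, 6.50, 6.15 and 6.38 in Fntb KO, against 6.80, 6.73, 6.54, 6.54 and 6.85 in WT. The groups did not overlap, by a small margin (difference -0.29, SE 0.0989, adjusted p 0.395). The probe set of H3c11 and 3 further H3 genes also had groups that did not overlap, at a level of 2.27 ± 0.17 in Fntb KO and 2.54 ± 0.07 in WT (n = 5 each, SD), below 4.19 (adjusted p 0.395). Another probe set of these 4 genes, first H3c1, differed by -0.28 (adjusted p 0.768), and by -0.13 without WT 4, which was at 3.35. Of the 12 H3 probe sets 3 had a mean above 4.19.

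Among H4 probe sets the lowest difference was in H4c9, a replication-dependent H4 gene. It had levels of 5.16, 4.64, 4.28, 5.15 and 4.44 in Fntb KO, against 5.27, 5.31, 5.26, 5.88 and 5.42 in WT. Every Fntb KO array lay below every WT array (difference -0.69, SE 0.195, 1.62-fold, adjusted p 0.257). The H4 gene H4c12 had levels of 8.53, 8.89, 8.53, 8.27 and 8.81 in Fntb KO, against 8.74, 8.81, 8.38, 8.44 and 8.82 in WT, and its groups overlapped (difference -0.03, 95% interval -0.34 to 0.27). The highest difference was 0.55 (SE 0.300, adjusted p 0.727) in a probe set that lists 13 H4 genes. Without Fntb KO 5 it was 0.26: that array was at 5.09, while the other Fntb KO arrays lay at 3.28 to 4.07 and WT at 3.07 to 3.66. The 2 probe sets of H4f16, which lies outside the clusters, differed by -0.13 and 0.02. In 1 of them Fntb KO spread from 3.99 to 5.97.

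**Figure D2:**
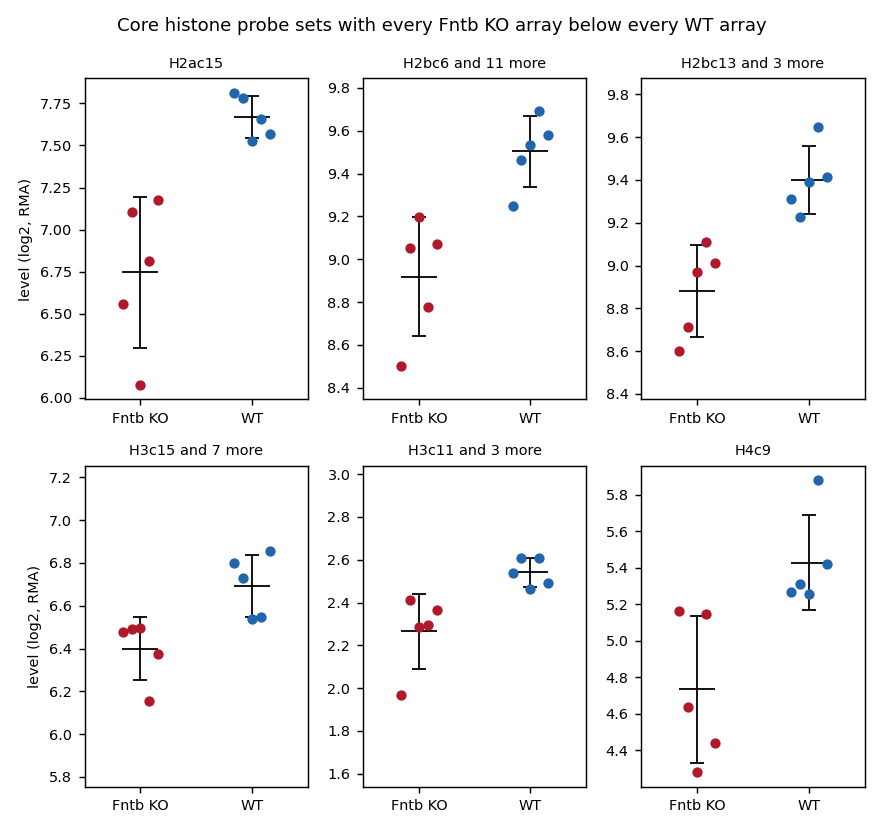
Levels (log2, RMA) of the 6 core histone probe sets in which every Fntb KO array lay below every WT array, 1 point per array, with mean and SD (n = 5 each). H2ac15 has the largest difference, 6.08 to 7.18 in Fntb KO and 7.52 to 7.81 in WT. The other panels are probe sets of H2B, H3 and H4 with smaller differences, and none of the 6 passed the test over all probe sets.

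Counted over the class, 1 of the 63 replication-dependent probe sets was called lower, H1f5, and 0 were called higher, against 0.283% and 0.116% of all probe sets. At an unadjusted p under 0.05, 14 were lower and 3 higher in limma, which is 22.2% and 4.76% of the class, against 4.21% and 3.83% of all probe sets. Groups did not overlap in 7 probe sets with Fntb KO lower and in 0 with Fntb KO higher, or 11.1% of the class on the lower side, against 1.33% and 0.859% of all probe sets. The median difference was -0.02 over the class and 0.01 over all probe sets, and 34 of the 63 lay below 0. It was -0.22 over the 30 members at or above the median level of all probe sets. That level was the mean over both groups, so a member could pass through WT alone. H1f5 did so, at 3.30 in Fntb KO and 5.39 in WT. The shift is thus partly built in by the filter, and the median difference of all probe sets at that level was not computed. By type the median was -0.12 for H1, -0.02 for H2A, 0.01 for H2B, -0.04 for H3 and 0.00 for H4. These probe sets are not independent: 37 of them list several genes, often the same ones, and 3 pairs have identical values in every array. With each set of values counted once, 12 of 60 were lower at an unadjusted p under 0.05.

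**Figure D3:**
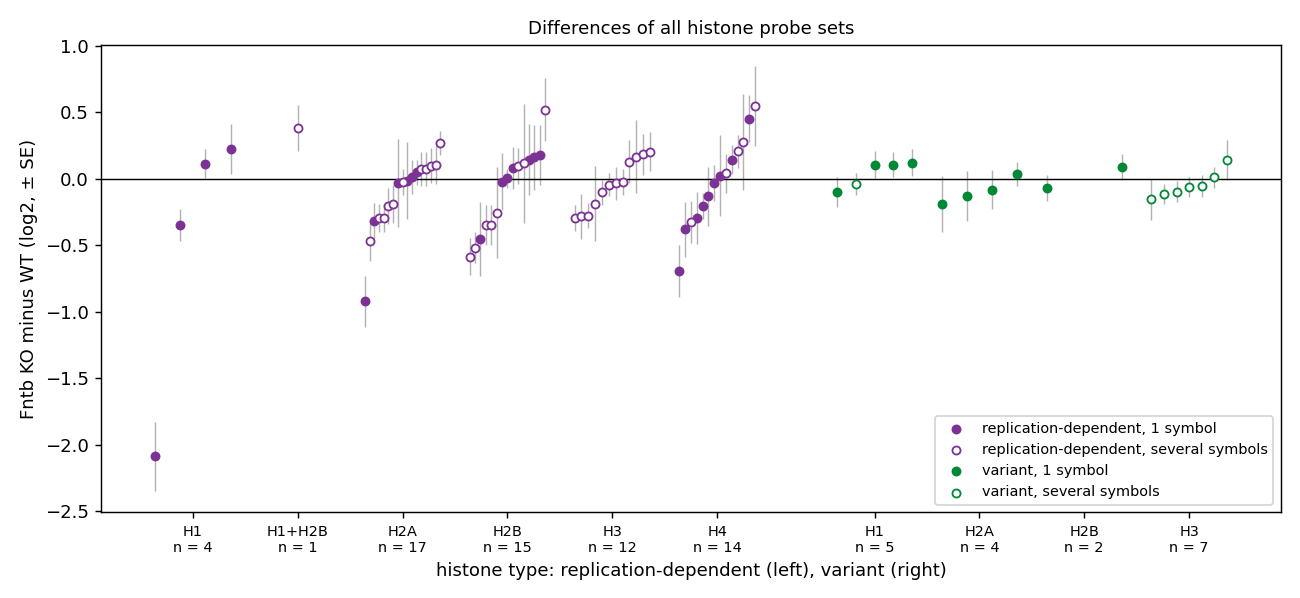
Difference between Fntb KO and WT (log2, with the SE from limma) for the replication-dependent and variant histone probe sets, by histone type. Filled points list 1 gene and open points several. H1f5 stands at -2.09, H2ac15 at -0.92, and the 18 variant probe sets lie between -0.19 and 0.14.

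The differences of the 18 variant probe sets lay between -0.19 and 0.14, with a median of -0.06. None was called, against 0.283% lower and 0.116% higher of all probe sets. An unadjusted p under 0.05 was reached by 0, against 4.21% lower and 3.83% higher of all, and groups did not overlap in 0, against 1.33% and 0.859% of all. With 18 probe sets, counts of 0 are near these shares. The H3.3 genes H3f3a and H3f3b, which encode the H3 variant deposited outside replication, are covered by 7 probe sets shared with symbols such as Gm12657. A probe set of H3f3b and 4 more symbols had levels of 10.87, 10.89, 10.84, 11.00 and 10.82 in Fntb KO, against 10.83, 11.07, 10.96, 10.94 and 10.93 in WT (difference -0.06, 95% interval -0.22 to 0.10). That of H3f3a with 1 more symbol had 10.38, 10.53, 10.49, 10.54 and 10.25 in Fntb KO, against 10.53, 10.60, 10.55, 10.56 and 10.51 in WT (difference -0.11, 95% interval -0.28 to 0.06). The groups overlapped in both. The largest differences of the 7 were -0.15 in another probe set of H3f3a and Gm12657 (adjusted p 0.905) and 0.14 in one of H3f3a with 4 more symbols (adjusted p 0.913).

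H2ax, whose protein is phosphorylated at DNA breaks, had levels of 7.67, 8.42, 7.22, 7.41 and 7.55 in Fntb KO, against 8.14, 8.10, 7.61, 7.64 and 7.73 in WT. The groups overlapped (difference -0.19, 95% interval -0.66 to 0.28, adjusted p 0.918), and the difference was -0.38 without Fntb KO 2. The H2A.Z genes, whose product marks promoters, had overlapping groups. H2az2 had levels of 8.15, 8.11, 7.77, 7.71 and 7.43 in Fntb KO, against 7.69, 8.05, 8.03, 8.04 and 7.76 in WT, and H2az1 averaged 4.97 ± 0.13 in Fntb KO and 4.94 ± 0.12 in WT. The 95% intervals of the differences were -0.41 to 0.24 and -0.16 to 0.23. H1f10, a linker variant, differed by -0.10 in a probe set of its own and by -0.04 in one shared with Gm5577, both below 4.19. Of the 6 germ-cell probe sets, H1f6, H1f7, H1f8, H2bc1 and H2bfm had means below 4.19, and H2ac1 was at 4.49 ± 0.14 in Fntb KO and 4.62 ± 0.44 in WT. H1f8, the oocyte linker histone, had levels of 3.76, 3.71, 3.95, 3.82 and 3.73 in Fntb KO, against 3.59, 3.56, 3.69, 3.97 and 3.61 in WT. The 6 differences ran from -0.13 for H2ac1 to 0.12 for H1f6, with adjusted p of 0.865 or more in limma. The pseudogene H2af-ps2 differed by 0.09.

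**Figure D4:**
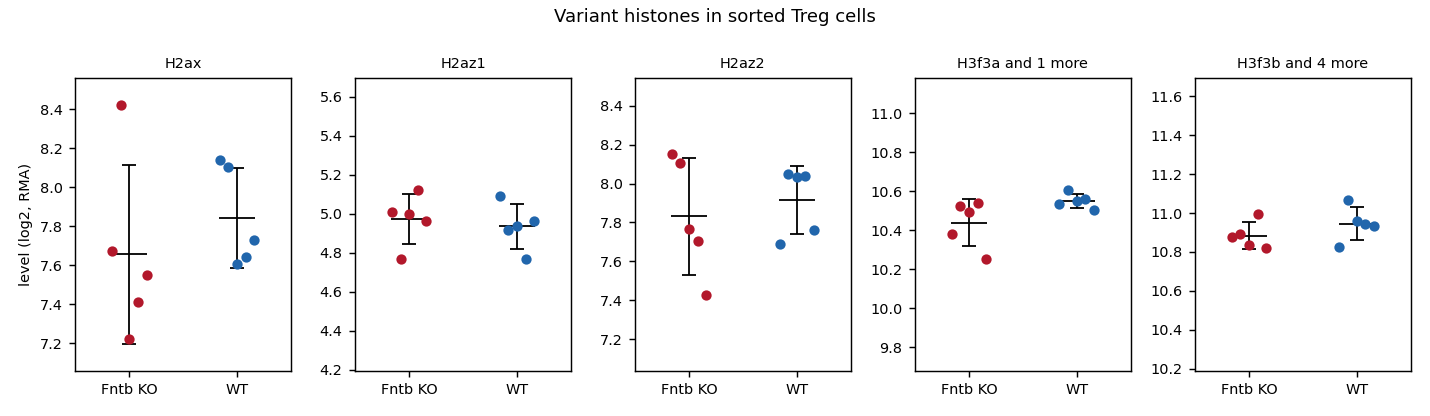
Levels (log2, RMA) of 5 variant histone probe sets in Fntb KO and WT, 1 point per array, with mean and SD (n = 5 each). In each panel the groups overlap, for example 7.22 to 8.42 in Fntb KO and 7.61 to 8.14 in WT for H2ax.

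Arrays of 1 group also varied more in replication-dependent than in variant probe sets when all types were pooled, but not in H2A. The residual SD had a median of 0.251 over the 63 replication-dependent probe sets and 0.141 over the 18 variants, against 0.198 over all probe sets. In H2A it was 0.218 for replication-dependent probe sets and 0.287 for the 4 variants. For H1 the medians were 0.260 and 0.150, for H2B 0.375 and 0.141, and for H3 0.226 and 0.106. Of the variants 7 are shared H3 probe sets. Fntb KO 1 was the lowest of its group in 19 of the 63 replication-dependent probe sets and WT 3 in 22 of them. This describes these arrays and was not tested. The labels' protocols name a NuGEN amplification kit, and how it treats mRNA without a poly(A) tail was not examined here.

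Along chromosome 13, H2ac15 and H1f5 lie close together, separated among histone genes by H2bc15, in the order H4c12, H2ac15, H2bc15, H1f5, H3c11, H2ac22 and H2bc22. Of their neighbours measured alone, H4c12 differed by -0.03 and H2bc22 by 0.01, and neither passed. H2bc22 was at 2.34 in both groups. H2bc15 and H3c11 are covered only by shared probe sets, with differences from -0.59 to 0.52 for H2bc15 and from -0.28 to 0.18 for H3c11. H4c9, whose difference was -0.69, lies in another stretch of the cluster, between H2bc12 (-0.02) and H2ac11. Among the chromosome 13 genes measured alone, 3 had differences beyond -0.50: H1f5, H2ac15 and H4c9.

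**Figure D5:**
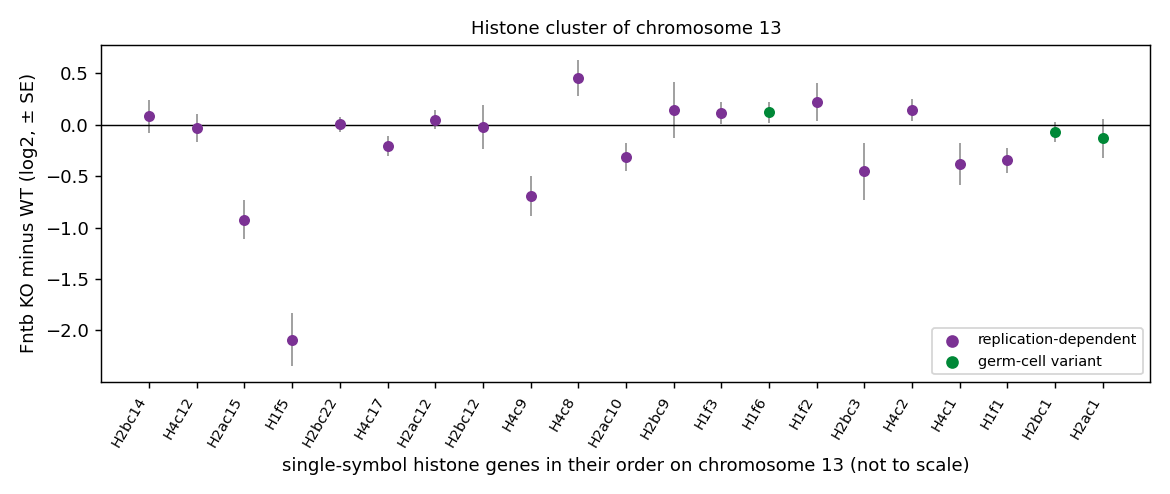
Differences between Fntb KO and WT (log2, with the SE from limma) of the histone genes of chromosome 13 that have a probe set of their own, in chromosome order and not to scale. H2ac15 (-0.92) and H1f5 (-2.09) stand beside each other, H4c9 is at -0.69 and H4c8 at 0.45.

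Genes that make and handle histones were followed as 2 lists. Of 13 measured genes of histone transcription and mRNA processing, none passed, where 0.283% of all probe sets were called lower and 0.116% higher. At an unadjusted p under 0.05 in limma, 2 were lower, against 4.21% of all probe sets, and the median difference was -0.05. Slbp, the protein that binds the histone mRNA stem loop, averaged 7.04 ± 0.14 in Fntb KO and 7.33 ± 0.13 in WT (n = 5 each, SD), a difference of -0.29 (adjusted p 0.356 in limma). Casp8ap2, a factor of the histone locus body, differed by -0.24 (adjusted p 0.650), and Npat, the coactivator of histone transcription, by 0.02. Of 23 measured histone chaperone and acetylation genes none passed and 3 were lower at an unadjusted p under 0.05, set against the same shares of all probe sets. Chaf1a, the large subunit of the assembly factor that follows replication, differed by -0.30 (adjusted p 0.618), and Mcm2, a subunit of the replicative helicase that also binds H3 and H4, by -0.29 (adjusted p 0.692). Among 9 measured histone variants whose symbols the rule does not take, Cenpa, the centromeric H3 variant, differed by -0.46 (adjusted p 0.139), and H2aj, a variant H2A gene, by 0.40 (adjusted p 0.687).

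Genes of dividing cells were mostly lower in Fntb KO. Of 24 measured members 22 had differences below 0, 2 fell, 0 rose and 12 were lower at an unadjusted p under 0.05, where 0.283%, 0.116% and 4.21% of all probe sets did so, with a median difference of -0.24, against 0.01 over all probe sets. Array medians of the list were 4.92 to 5.21 in Fntb KO and 5.54 to 5.94 in WT. They rest on the few genes with levels near that stretch, so their gap need not hold for single genes. Groups did not overlap in 6 of the 24 genes, all with Fntb KO lower, against 1.33% of all probe sets. Top2a, the topoisomerase that disentangles replicated DNA, averaged 4.42 ± 0.17 in Fntb KO and 5.61 ± 0.18 in WT, and Mki67, a proliferation marker, 5.16 ± 0.18 in Fntb KO and 6.09 ± 0.13 in WT (n = 5 each, SD, adjusted p 0.00113 and 0.00400 in limma). Over the 63 replication-dependent histone probe sets, by contrast, the median difference was -0.02, and 34 lay below 0. At an unadjusted p under 0.05 in limma 14 of them were lower and 3 higher, against 4.21% and 3.83% of all probe sets. The part of dividing cells in the fall of H1f5 and in the other histone values was not tested.

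Markers of other cells did not pass in any list, where 0.283% of all probe sets were called lower and 0.116% higher. With lists of 3 to 9 genes, counts of 0 are near these shares. Array medians of 6 B cell genes were 3.74 to 4.48 in Fntb KO and 4.15 to 4.40 in WT. Those of 7 CD8 T or NK cell genes were 3.97 to 4.19 in Fntb KO and 3.67 to 4.20 in WT, and those of 9 myeloid genes 3.76 to 4.61 in Fntb KO and 3.73 to 3.98 in WT. Plasma cell genes, 6 in number, had 3.70 to 4.05 in Fntb KO and 3.78 to 3.82 in WT, and 3 erythroid genes 3.25 to 3.84 in Fntb KO and 3.39 to 3.73 in WT. In the myeloid list the largest differences were S100a8 (1.05, adjusted p 0.527) and S100a9 (0.66, 0.703), in the CD8 T or NK list Nkg7 (-0.79, 0.0546) and Cd8b1 (0.27, 0.901), and in the B cell list Cd22 (-0.43, 0.369) and Cd79b (-0.41, 0.657). Of the Treg markers, Ikzf2 differed by -0.41 (adjusted p 0.393) and Gpr83 by 0.40 (adjusted p 0.125). Of the measured genes, 2 of 6 B cell, 4 of 7 CD8 T or NK, 4 of 9 myeloid, 3 of 6 plasma cell and 3 of 3 erythroid genes had means at or below 4.19. The part of other cells in the histone values was not tested.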

How the data were processed

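Per the submitters' processing notes, the authors ran RMA in Affymetrix Expression Console 1.1, so the deposited values are log2 levels per probe set, corrected for background and made alike between arrays by quantile normalization. Per the labels' protocols, RNA was amplified and biotin-labelled with NuGEN kits. No genome build or further setting is given in these sources. The table the authors added and the series matrix did not differ in any value (largest difference 0).

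Histone probe sets were found by symbol in GEO's platform annotation, which lists 25341 of the 41345 probe sets, 1820 of them with several symbols. All probe sets, annotated or not, were fitted in limma 3.58.1 (R 4.3.3) with lmFit and eBayes, no covariate, and Benjamini-Hochberg adjustment over the whole table at 0.05. Unannotated probe sets may include control probes. Differences are Fntb KO minus WT. The members, lists and tests were chosen with earlier results of these data known. Listed genes outside the histone rule use the single-symbol probe set with the highest mean. Per-array values and full statistics were given for called members and, where a type had none, for the 2 with the largest difference, and further for members of highest mean level or without overlap between groups, the last chosen after their values were seen. In the other lists the called members, or else the 2 largest differences, are named, and Npat is named beyond that rule.

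Separate animals are not stated in the labels, so p-values measure the spread of these samples, part of which may be technical. Replicate numbers are names only. Precision is limited by there being 5 arrays a group. On simulated data of 41345 probe sets for this comparison, 84% of those changed by 1 on the log2 scale and 97% of those changed by 2 were recovered, and 17 of 198 calls were false. There, 100 probe sets chosen at random were changed by each size. The noise was independent between probe sets, with no effect shared by an array, so these rates need not hold for the real arrays or the histone members. Alternatives were the probe sets tested, a filter on level, the variance model, array weights, another normalization of the annotated probe sets and the authors' own table. Others were the 3 low-median arrays as a block or left out, members with 1 symbol alone, and each array left out.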

Additional observations from a re-analysis of the deposited data

Results flagged for a closer look

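In a group of 5 arrays, a value was looked at again where its gap to the nearest other array exceeded 0.71 of the group's range. Of 54 groups checked this way 5 met that limit, and chance alone gives about 1 in 20.

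The probe set of 10 H2A genes, first H2ac22, was low in Fntb KO 4, at 6.21 against 6.74 to 6.84 in the other Fntb KO arrays, and in WT 4, at 6.76 against 7.17 to 7.30 in the other WT arrays. H4c9 was high in WT 4, at 5.88 against 5.26 to 5.42. The germ-cell gene H2ac1 was low in WT 1, at 3.84 against 4.69 to 4.90. The probe set of H3c11 and 3 further H3 genes was low in Fntb KO 1, at 1.97 against 2.28 to 2.41, all near the level of olfactory receptor probe sets.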

How the results depend on the processing

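No paired analysis was possible because the labels carry no replicate numbers. H1f5 kept its direction in every alternative and every fit without 1 array, at differences of -2.26 to -1.92 in those fits (adjusted p 0.00574 to 0.0299). Among all these fits it lost its call only without the 3 low-median arrays, a fit of fewer samples, with an adjusted p of 0.0532 and 0 replication-dependent calls. There were 2 replication-dependent lower calls, H1f5 and H2ac15, over the annotated probe sets and with 1 probe set per gene. The same 2 were called after another quantile normalization of the annotated ones. Each of these fits left out the unannotated probe sets, and the cause was not tested. Replication-dependent lower calls numbered 1 without each array, and the counts of replication-dependent higher and of variant calls were 0 in every fit. The replication-dependent median moved to -0.22 when only probe sets at or above the median level (30 members) were kept. That filter used the mean over both groups, and H1f5 passed it through WT alone. Without each array the median over all members of the class ran from -0.04 to 0.00. The variant median ran from -0.06 to -0.03 without each array, and was -0.00598 without the 3 low-median arrays, -0.0157 with 1 probe set per gene and -0.0830 at or above the median level. Without the 3 low-median arrays 9 of the 82 members changed sign, none with a difference over 0.171 in size in either fit; among those with full statistics H2ac1 was at 0.0129 and a probe set of H3f3a with 1 more symbol at 0.0766, and without each array H2bc1 ran from -0.124 to 0.00397, the last without Fntb KO 2. Lower and higher calls were 180 and 77 over the annotated probe sets, and 188 and 77 after another quantile normalization of these. With 1 probe set per gene 179 were lower. Over all probe sets, lower and higher calls were 117 and 48, and 29 and 15 without the 3 low-median arrays. They ran from 68 to 151 lower and from 15 to 76 higher without each array; the lower count moved by over 1.5 times without Fntb KO 3 (74), WT 3 (71), WT 4 (68) or WT 5 (70), and the higher count without every array but Fntb KO 2. Levels at or below the olfactory receptor guide limit what can be said of the 41 dim histone probe sets.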
